A study of Mus musculus with 4 samples.

Results

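The regions described are H3K27ac peaks that were called in a control mouse chondrocyte culture and had no peak of the Hdac3-knockout culture near them. A control peak was a member, called an isolated control peak here, when no row of the knockout list lay within 10 kb of either of its edges. The rule left 2341 of the 12873 control peaks, 18.2%. The same rule applied in the other direction left 2684 of 13130 knockout peaks, 20.4%. Together the lists hold 26003 peaks. The members were therefore chosen by peak calls, and their number, width and pileup are given as a description.

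The knockout culture carried the labelled genotype hdac3-knockout and received Cre-recombinase adenovirus, and it is called Cre here. The control culture was labelled wild-type and received an adenovirus with GFP. Both were primary chondrocytes of C57Bl/6 mice, and the knockout sample was described as a micromass culture, a dense spot of cells that lays down cartilage matrix ex vivo. Each culture gave 1 library with the anti-H3K27Ac antibody, and 2 input libraries were not analysed here. The sources used here do not give the age of the animals, how many gave cells, or the share of cells that recombined. With 1 library per culture there was no replicate check, so each difference between cultures is a difference between 2 libraries and carries no p-value.

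H3K27ac, acetylation of lysine on the tail of histone H3, marks active promoters and enhancers, and nucleosomes on both sides of an open regulatory site carry it. HDAC3 is a deacetylase that acts inside the NCoR and SMRT corepressor complexes. In cartilage the mark is known at the genes of the matrix and of the Sox transcription factors that maintain chondrocyte identity.

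The promoters of 5 genes are shown, from those that carried the summits of the strongest isolated control peaks inside an annotated promoter window. The fifth, Mtmr2, tied with Yars2 in pileup and fold. They are among the clearest cases in which a promoter had a control peak and no Cre peak within 10 kb. The sequences are from RefSeq on build GRCm38.p6, run 5′ to 3′ on the gene's strand, and hold 250 bases before and 50 bases after the annotated start. Capitals mark matches on either strand. The motif CCAAT is that of the factor NF-Y, and GGGCGG is the GC box of Sp and KLF proteins. The cyclic AMP response element, CRE, is TGACGTCA. The letters searched for Sox factors were ACAAAG.
Sec23b: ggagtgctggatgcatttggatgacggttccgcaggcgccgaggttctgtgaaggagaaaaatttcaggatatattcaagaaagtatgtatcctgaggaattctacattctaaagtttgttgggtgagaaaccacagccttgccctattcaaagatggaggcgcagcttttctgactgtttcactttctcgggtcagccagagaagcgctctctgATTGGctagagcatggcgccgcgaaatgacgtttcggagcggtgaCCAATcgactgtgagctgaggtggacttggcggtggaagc
Commd6: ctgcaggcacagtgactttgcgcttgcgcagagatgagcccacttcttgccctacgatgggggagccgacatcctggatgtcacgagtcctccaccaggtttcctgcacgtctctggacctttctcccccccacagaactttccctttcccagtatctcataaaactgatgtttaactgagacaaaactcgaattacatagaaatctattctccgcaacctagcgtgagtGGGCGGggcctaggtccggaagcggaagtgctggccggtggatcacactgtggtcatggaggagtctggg
Cmss1: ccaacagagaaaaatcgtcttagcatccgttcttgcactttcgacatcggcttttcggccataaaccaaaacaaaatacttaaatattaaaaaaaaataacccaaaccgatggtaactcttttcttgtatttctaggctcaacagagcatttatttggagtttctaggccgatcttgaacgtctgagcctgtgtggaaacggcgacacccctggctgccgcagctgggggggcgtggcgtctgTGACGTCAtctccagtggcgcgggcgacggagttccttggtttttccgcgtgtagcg
Supt6: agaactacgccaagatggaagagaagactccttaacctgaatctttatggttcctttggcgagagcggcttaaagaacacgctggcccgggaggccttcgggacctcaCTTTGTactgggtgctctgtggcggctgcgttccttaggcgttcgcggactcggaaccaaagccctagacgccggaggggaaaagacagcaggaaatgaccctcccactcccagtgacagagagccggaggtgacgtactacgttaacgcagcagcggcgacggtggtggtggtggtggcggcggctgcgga
Mtmr2: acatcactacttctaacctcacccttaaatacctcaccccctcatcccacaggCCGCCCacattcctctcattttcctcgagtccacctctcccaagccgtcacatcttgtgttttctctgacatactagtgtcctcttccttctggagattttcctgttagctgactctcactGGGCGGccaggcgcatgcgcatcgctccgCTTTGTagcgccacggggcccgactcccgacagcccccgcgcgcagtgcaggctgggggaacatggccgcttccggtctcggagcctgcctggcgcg

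Sec23b (chr2:144555979-144556278, plus strand) encodes a coat protein of vesicles that leave the endoplasmic reticulum, and had 2 CCAAT matches. Its peak had 27 fragments at the summit, the highest pileup among the members, and the summit lay 214 bp before the start. Commd6 (chr14:101640422-101640721, minus strand), of the COMMD family, had 1 GC box, and its peak had 25 fragments, 100 bp before the start. Cmss1 (chr16:57606818-57607117, minus strand) had 1 CRE and a peak of 23 fragments, 112 bp before the start. Supt6 (chr11:78245654-78245953, minus strand), which encodes a histone chaperone of transcription elongation, had 1 Sox match and a peak of 22 fragments, 174 bp before the start. The same peak lay 126 bp downstream of the start of Sdf2. Mtmr2 (chr9:13748929-13749228, plus strand), a phosphoinositide phosphatase gene, had 2 GC boxes and 1 Sox match, and its peak had 21 fragments, 228 bp before the start. A match to these letters is a description and not a bound site. In all, 112 members had their summit in a promoter window of 300 bases.

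Members were low, narrow peaks. The number of fragments at the summit, recovered from the authors' fold and p-value and called the pileup, had a median of 11 in isolated control peaks (range 7 to 27, n = 2341), against 12 in the other 10532 control peaks and 11 in isolated Cre peaks. A pileup of 15 or more was reached by 204 members, 8.71% (exact 95% interval 7.60 to 9.93), against 24.5% of other control peaks and 11.1% of isolated Cre peaks. A pileup of 9 or less was found in 571 members, 24.4%, against 14.7% of other control peaks. The background over the genome was 1.01 fragments in the Cre library and 0.949 in the control library, a ratio of 1.06 after the authors' scaling. The expected count at the summit was over 1% above that background in 499 members (21.3%) and in 30.7% of other control peaks. Peaks of equal pileup can therefore differ in fold.

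The share of control peaks that were isolated was lower at high pileups than at low ones. It was 46.7% at a pileup of 7, a class of only 21 isolated and 24 other control peaks. At pileups of 8, 9 and 10 it was 29.9%, 25.1% and 24.9%, and no control peak above 27 fragments was isolated. Median width was 173 bp (170 to 176, range 144 to 956), against 207 bp in other control peaks and 174 bp in isolated Cre peaks. A region missing from a list can lie just under the caller's threshold, and the Cre signal at these sites was not measured by a peak list. The intervals cover counting error of these libraries only, and nearby peaks are not independent.

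**Figure D1:**
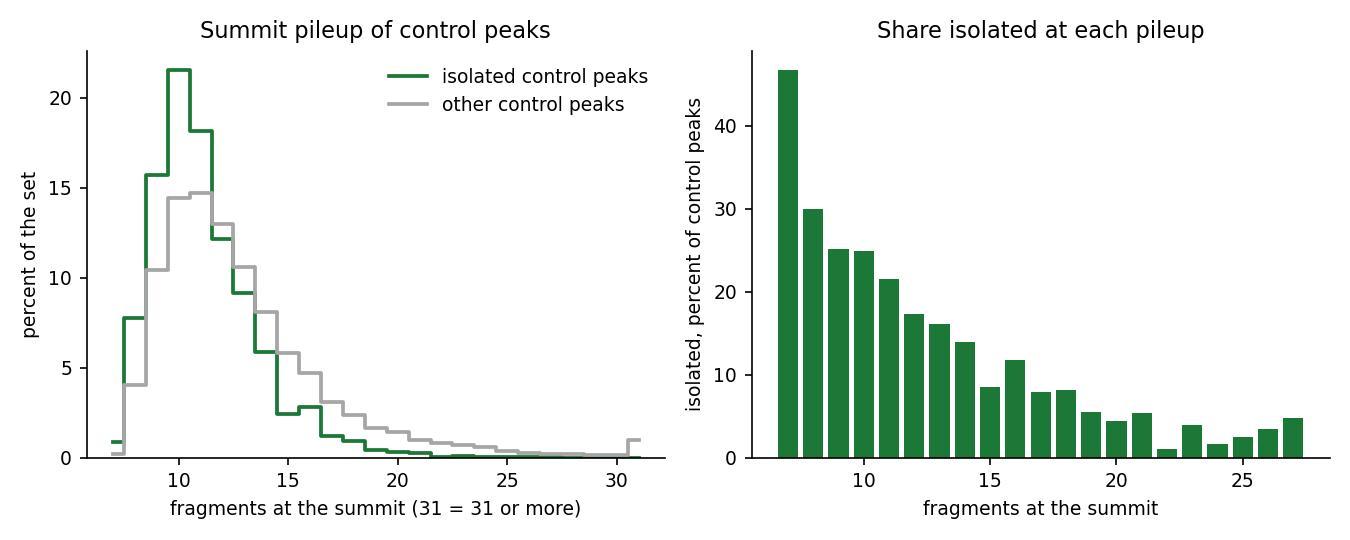
Summit pileups of control peaks, in fragments. Left, the percent of isolated (green) and other (grey) control peaks at each pileup. Right, the percent of control peaks at each pileup that were isolated. This percent was 46.7% at 7 fragments, with only 21 isolated and 24 other peaks, and 29.9% at 8. Isolated peaks lie toward low pileups.

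Most members lay far beyond the distance that the rule asked for. The median gap to the nearest Cre peak was 55779 bp (53135 to 59294), 761 members had a gap over 100 kb, and 66 had a gap over 1 Mb. A gap of 10 to 20 kb was found in 423, which is 18.1%. Members close to the limit were at 2310022B05Rik, with a gap of 10011 bp and 11 fragments, and near Hmgb1 with 10019 bp and 10 fragments. Just outside it, peaks near Btbd3 (gap 9987 bp, 8 fragments), in Gne (9986 bp, 10 fragments) and at Tsfm (9968 bp, 10 fragments) were not members. A peak near Sox9, the master regulator of chondrocytes, missed by a gap of 9906 bp. Peaks on the 2 sides of the limit had like pileups, so membership near it turned on position.

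The place of a summit relative to genes was not used by the rule. Of the members, 736 lay within 1 kb of an end of a protein-coding gene (31.4%, 29.6 to 33.4), 1160 lay inside a gene and farther from its ends (49.6%, 47.5 to 51.6), and 445 lay between genes (19.0%, 17.4 to 20.7). The gene table gives no strand, so an end is either the start or the stop of a gene. The share at gene ends was above that of the other control peaks, 25.8%, by 5.69 percentage points (Newcombe 95% interval 3.66 to 7.77). It was above that of the isolated Cre peaks, 24.5%, by 6.92 points (4.44 to 9.41). Isolated Cre peaks were more often between genes, 27.5%, and the difference, isolated control minus isolated Cre, was -8.52 points (-10.8 to -6.19).

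The other control peaks were of 2 kinds. The share at gene ends was 31.4% in members and 31.5% in the 5333 control peaks that overlapped a Cre peak, a difference of -0.02 points (-2.26 to 2.25). It was 11.6 points higher in members (9.40 to 13.7) than in the 5199 control peaks that had a Cre peak within 10 kb without overlap, where it was 19.9%. With all pileups pooled, the share at gene ends thus differed by more than its counting interval from the neighbouring peaks and not from the overlapping ones.

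**Figure D2:**
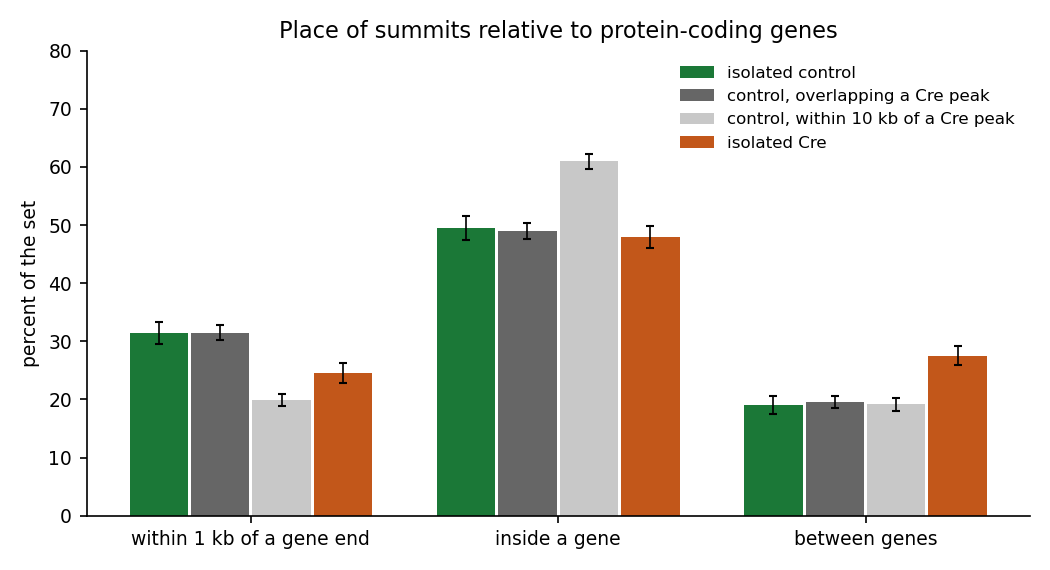
Percent of each set of peaks by the place of the summit, with exact 95% intervals as bars. At gene ends, isolated control peaks (31.4%) stand beside overlapping control peaks (31.5%) and above isolated Cre peaks (24.5%); between genes, isolated Cre peaks (27.5%) stand above the other sets.

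Pileup and place went together, so the shares were also taken at like pileup. With 7 to 9 fragments, 25.04% of isolated control peaks were at gene ends, against 17.3% of other control peaks and 20.8% of isolated Cre peaks. With 10 to 11 fragments the shares were 27.9%, 20.2% and 22.9%, and with 12 to 14 they were 37.8%, 25.7% and 25.3%, in the same order of sets. With 15 or more, 45.6% (38.6 to 52.7) of the isolated control peaks were at gene ends, against 37.4% (35.5 to 39.3) of other control peaks and 34.6% (29.2 to 40.3) of isolated Cre peaks. The isolated control peaks had the highest share of these 3 sets in each of the 4 classes. The control peaks that overlapped a Cre peak, level with members when pooled, also had lower shares within each class. These were 22.3%, 23.8%, 28.9% (26.7 to 31.1) and 40.3% (38.1 to 42.5), from low to high pileup. Only with 12 to 14 fragments, where members had 37.8% (34.1 to 41.7), did the intervals of both sets lie apart. In the other classes they crossed, with 21.5 to 28.8 in members and 18.7 to 26.4 in overlapping peaks at 7 to 9 fragments. The class of 15 or more is open, and members reached 27 fragments while overlapping peaks reached 58. Overlapping peaks had more high pileups, with 37.4% of them at 15 or more fragments.

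The median distance from the summit to the nearest gene end was 5719 bp (4403 to 7401) in members, against 5903 bp in other control peaks and 10964.5 bp (9639 to 13066) in isolated Cre peaks. In 205 members, 8.76%, it was over 100 kb. The farthest lay 1138608 bp from Aga, with 8 fragments. The next lay 825954 bp from Chordc1 and 697947 bp from Rfpl4b, both with 13 fragments. A nearest gene is a position and not an assigned target.

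Where the RefSeq promoter table gives a gene's strand, which it did for 17492 genes, summits could be placed before or after the start. Of the members, 655 lay within 1 kb of a start (28.0%), against 22.9% of isolated Cre peaks, a difference of 5.07 points (2.65 to 7.48). Against the overlapping control peaks, of which 30.2% did so, the difference was -2.25 points (-4.42 to -0.03). Few summits lay at the start itself: 28 of the 655 (4.27%, 2.86 to 6.12) lay within 100 bp of it, against 27 of 615 isolated Cre peaks. Before the start the median position was -333 bp and after it 516.5 bp, and 56.5% (52.6 to 60.3) of the 655 lay downstream. In overlapping control peaks 50.4% (48.0 to 52.9) lay downstream and in isolated Cre peaks 61.3% (57.3 to 65.2).

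**Figure D3:**
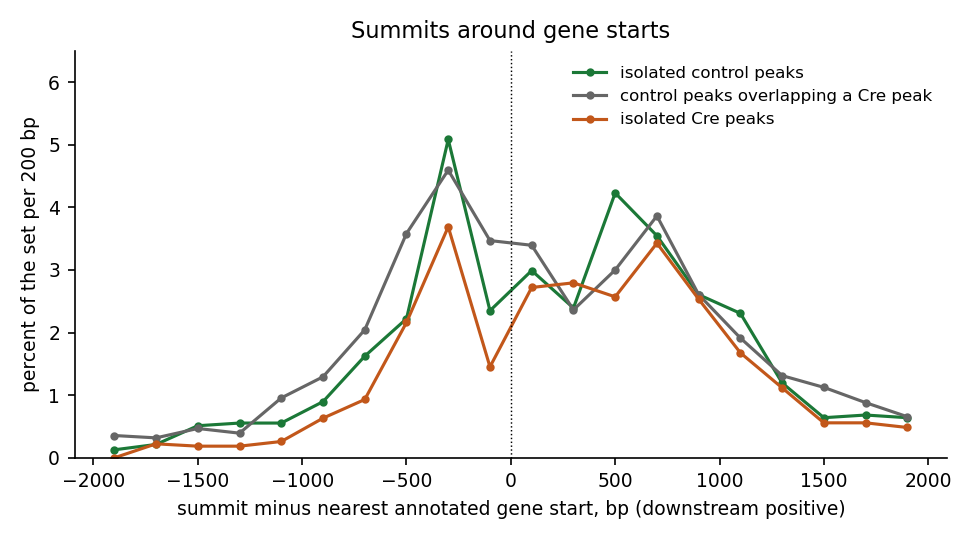
Percent of each set of summits per 200 bp around the nearest annotated gene start, downstream positive. Isolated control peaks reach 5.08% of the set between 400 and 200 bp before the start and 4.23% between 400 and 600 bp after it, with fewer at the start.

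The promoters near members were rich in CpG. For the 765 promoters with an isolated control summit within 1 kb of the start, the median GC content was 61% and the median ratio of observed to expected CpG was 0.837. It was 0.843 for promoters with an overlapping control peak, 0.821 for promoters with an isolated Cre peak and 0.567 for all 21263 promoters. A ratio of 0.6 or more was found in 85.5% of members' promoters, 6.73 points (2.78 to 10.7) above the 78.8% of promoters with an isolated Cre peak, and in 47.7% of all promoters. Against the 83.2% of promoters with an overlapping control peak, the difference was 2.28 points (-0.90 to 5.26). These promoter windows were compared on 8 features, against the isolated Cre set and against the overlapping set, without adjustment for the number of comparisons.

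Among the motifs, searched on both strands in windows of 300 bases, TGANTCA was in 3.53% of members' promoters, against 5.90% of promoters with an isolated Cre peak and 6.99% of all promoters. Its difference from the isolated Cre set was -2.37 points (-4.68 to -0.18). The TATA box letters TATAAA were in 4.97%, against 5.31% and 12.6%, and GGGCGG in 65.8%, against 66.7% and 46.2%. TGACGTCA was in 4.44%, against 4.87% and 2.23%, and CCAAT in 39.3%, against 37.5% and 38.2%. ACAAAG was in 14.1%, against 12.5% and 16.8%, and CANNTG, the E-box, in 58.2%, against 59.7% and 69.0%. For these last 6 motifs the interval of the difference between isolated control and isolated Cre promoters took in 0. Against promoters with an overlapping control peak, of which 7.22% held TATAAA, its difference was -2.25 points (-4.14 to -0.14). In that comparison TGANTCA differed by -1.52 points (-3.12 to 0.30), and the intervals of the other motifs also took in 0. CANNTG and the other motifs were counted separately where they overlapped.

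Of the 21 members with 20 or more fragments, 10 lay at gene ends, 6 inside genes and 5 between genes. Besides the promoters printed, Pelo, a ribosome rescue factor, had 26 fragments in a peak of 504 bp (chr13:115090321-115090824), 275 bp before its start. That peak also lies inside Itga1, an integrin gene, and had the nearest Cre peak 1078312 bp away. Yars2, a mitochondrial tRNA synthetase gene, Nptn, a cell adhesion gene, and Sec14l2 had 21 fragments each. Pik3r2, a regulatory subunit of phosphoinositide 3-kinase, and Zranb3 had 20, and Clk1, a splicing kinase gene, and Herc4 had 19. Folds differed at like pileup, with 11.3 for Yars2 and 7.68 for Sec14l2, and 10.8 for Pik3r2 and 7.33 for Zranb3.

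Away from gene ends, the peak near Prl5a1 had 24 fragments and a width of 597 bp, and its summit lay 265805 bp from that gene. Peaks inside Aff3 (chr1:38401538-38401859) and Usp54 had 23 fragments each, and the peak near Fam180a had 21. The peak 21641 bp from Ddr1, a collagen receptor gene, was the widest of all members at 956 bp (chr17:35725988-35726943), with 21 fragments. The next widest were in Ccdc80 (846 bp), Arhgap17 (712 bp) and Cipc (668 bp).

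Most members stood alone, and some lay close together. Joined within 10 kb, the 2341 peaks made 1828 loci, of which 1448 held 1 peak, 288 held 2, 68 held 3 and 24 held 4 or more. The largest locus, inside Rbfox2, held 10 peaks within 10082 bp. Aff3 held 6 peaks within 2752 bp, and the locus at Fzd7 held 6 within 6845 bp. Between genes, 5 peaks with 13 to 18 fragments lay within 1956 bp, with Skor1 the nearest gene. Another 5 peaks lay within 2050 bp near Htr1a, with the nearest Cre peak 587648 bp away. Isolated Cre peaks made 2018 loci, the largest of 9 peaks. Of the members, 61.9% were alone in their locus, against 58.2% of isolated Cre peaks.

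Of 21887 protein-coding genes, 298 held 2 or more isolated control summits in the gene body, 1.36%, against 323 for isolated Cre peaks, 1.48%. Together 1199 genes held at least 1, of which 901 held 1, 199 held 2, 65 held 3, 16 held 4 and 18 held 5 or more. The genes with 2 or more were long, with a median of 80.4 kb, against 40.9 kb for genes with 1 and 17.2 kb for all genes. In 179 of the 298 genes (60.1%) the Cre list had no peak anywhere in the body. There were 30 genes that held 2 or more isolated peaks of each list, a share of 10.1% of the control set and 9.29% of the Cre set. Peaks of 1 gene are not replicates, and 12 of the genes overlap another such gene and share its peaks.

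Rbfox2, which encodes an RNA-binding regulator of splicing, held most members: 17 of its 29 control peaks were isolated, and the Cre list had 9 peaks in the gene. Of these, 10 lay in the locus chr15:77149851-77159932, with 9 to 17 fragments and the nearest Cre peak 33072 bp away. The other 7, with 9 to 12 fragments, lay from 201 to 227 kb above the lower end of the gene. In between, control and Cre peaks lay side by side, so the members covered stretches of a gene that was marked in both cultures.

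Other genes had no Cre peak at all. Plekha5 held 7 members with 8 to 13 fragments over 64924 bp and no other control peak. Ccdc80, which encodes a matrix protein, held 6, with 16, 18, 9, 12, 12 and 11 fragments along the gene. Col1a2, the α2 chain of type I collagen, held 5, with 11, 12, 11, 9 and 9 fragments, 3 of them within its first 1.64 kb. Pafah1b1, the Lis1 regulator of dynein, also held 5 with 9 to 14 fragments. Cdkl3 and Ube2b, a ubiquitin-conjugating enzyme gene, held 4 each and overlap.

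Several genes of the matrix and of receptors in this ranking had Cre peaks as well. Nid2, a basement membrane nidogen, held 5 members among 7 control peaks and had 1 Cre peak. Fgfr2, a fibroblast growth factor receptor gene, held 5 among 10 control peaks and had 7 Cre peaks. Antxr1, a collagen-binding receptor gene, held 5 among 11 and had 9. Chst11, a chondroitin sulfotransferase gene of cartilage, held 6 among 29 and had 16. Sntb2, a syntrophin gene, held 4 among 7 and had 2. Of the Cre peaks in these genes, 5 in Antxr1, 4 in Chst11 and 1 in Fgfr2 were isolated Cre peaks. None in Nid2 or Sntb2 was.

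The regulators in the ranking differed in the same way. Foxp1, a forkhead factor gene, held 5 members among 7 control peaks and had 1 Cre peak, and Mideas, a subunit of a deacetylase complex, held 5 among 6 and had 1. Aff3, of a family of elongation factors, held 7 among 44 and had 28 Cre peaks. Msi2, an RNA-binding protein gene, held 6 among 39 and had 20. Sox6, a partner of Sox9 in cartilage, held 5 among 25 control peaks, while the Cre list had 34 there and 9 of them were isolated. Dnm3, Lpp, Snd1, Ddc, Rapgef2, Psd3, Usp6nl and Cdk17 completed the first 25 with 4 to 8 members each. For isolated Cre peaks the genes with most were Trps1 and Sox6 with 9 each, and Fndc3b and Rad51b with 7 each.

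**Figure D4:**
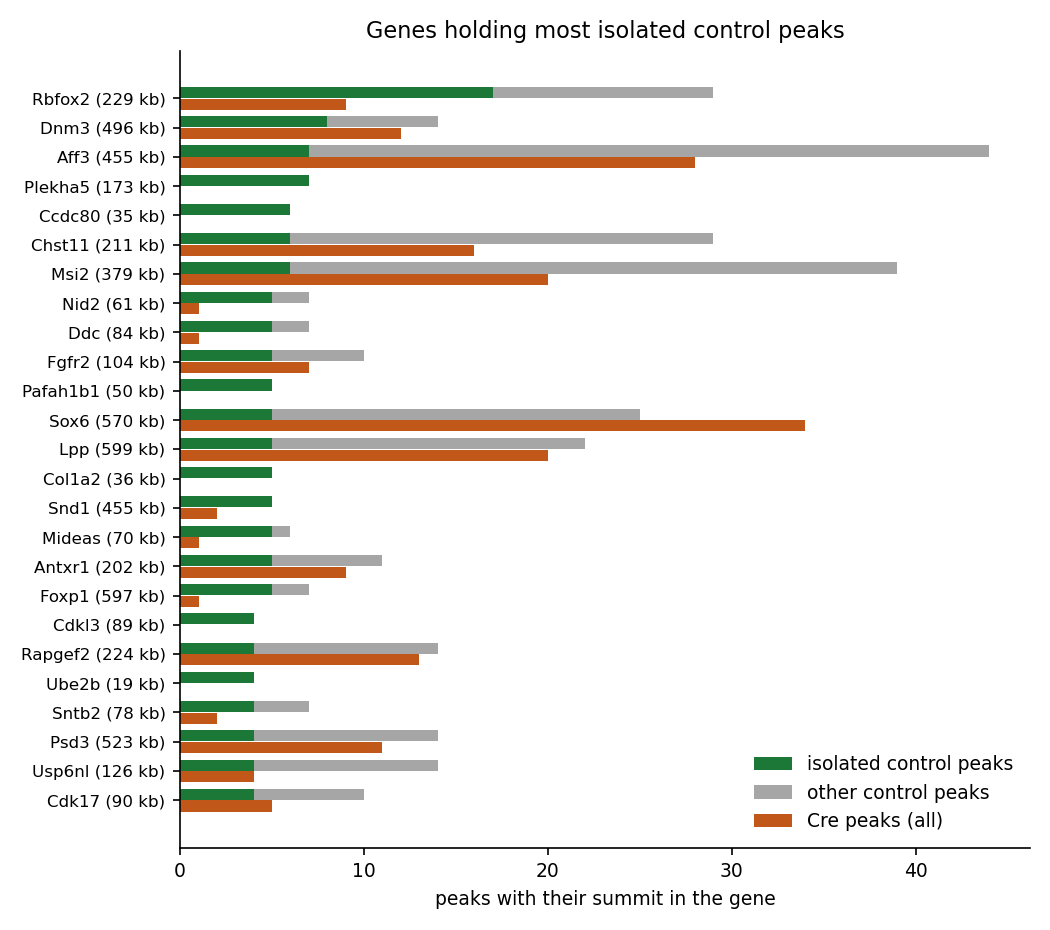
Peaks with their summit in the body of the 25 genes that held most isolated control peaks, with gene length in kb. For each gene the upper bar stacks isolated (green) and other (grey) control peaks and the lower bar counts all Cre peaks; Rbfox2 has 17 isolated peaks, and Plekha5, Ccdc80, Pafah1b1, Col1a2, Cdkl3 and Ube2b have no Cre peak.

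**Figure D5:**
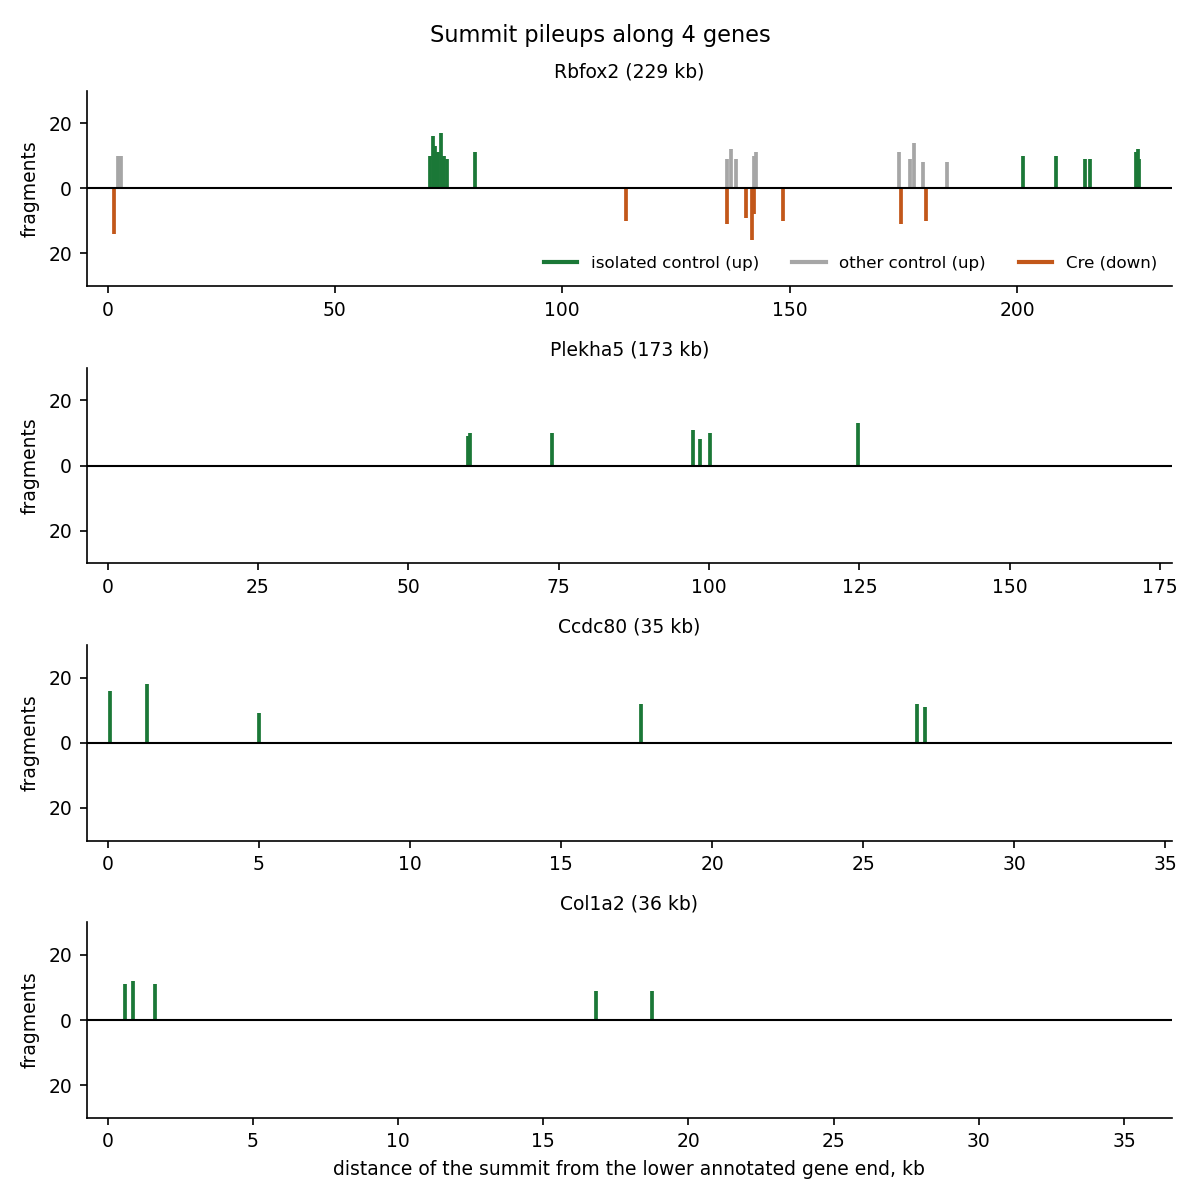
Summit pileups, in fragments, along 4 genes by distance in kb from the lower annotated gene end, with isolated (green) and other (grey) control peaks upward and Cre peaks (orange) downward. Rbfox2 shows 2 groups of isolated peaks beside Cre peaks elsewhere in the gene; Plekha5, Ccdc80 and Col1a2 show isolated control peaks and no Cre peak.

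Gene lists of cartilage biology were read against all genes: 8.93% of protein-coding genes had a member in the gene or within 10 kb (9.12% for isolated Cre peaks), and 34.4% of the 5686 genes with any control peak did (35.2% of 5670 with a Cre peak). Among 27 cartilage matrix genes 5 had a member, of 22 with any control peak. They were Col27a1 with 3 members, Col11a1 with 2, and Hapln1, the link protein gene, Bgn and Dcn, both small proteoglycan genes, with 1 each. The pileups of these 5 genes' highest members were 8 to 12. Isolated Cre peaks lay at 4 of the 27 genes. Of the 5 genes with a member, Col11a1 had 2 isolated Cre peaks, Dcn had 1, and Col27a1, Hapln1 and Bgn had none. At the other matrix genes with control peaks, each such peak had a Cre peak within 10 kb.

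Of 26 other collagen and adhesion genes, 5 had a member, of 17 with a control peak, and 4 had an isolated Cre peak. Col1a2 had 5 members, Col16a1 and Col12a1 had 3, Itga1 had 2 and Col3a1 had 1. Col3a1 also had 2 isolated Cre peaks, and the other genes just named had none. Of the Col16a1 members, 2 lay in the neighbouring gene Pef1, within 1 kb of its start. Both Itga1 members lay inside that gene but at the start of Pelo, 275 and 875 bp before it. Of 22 matrix proteases and inhibitors, 4 had a member and 8 had an isolated Cre peak. The inhibitor genes Timp3 with 3 members, Timp1 with 2 and Timp2 with 1 were among them, and Adamts12 was the protease with 2. Timp1 had 12 fragments 436 bp before its start and its nearest Cre peak was 219800 bp away. None of the 16 hypertrophy and mineralization genes had a member, which allows a share of up to 20.6% by the exact 95% interval. Of these genes, 6 had a control peak and 2 had an isolated Cre peak.

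Chondrocyte transcription factors had a member in 7 of 31, of 19 with a control peak, and 12 of 31 had an isolated Cre peak. Sox6 had a member of 16 fragments, Mef2c, a driver of hypertrophy, had 3 members of up to 14, Trps1 had 13 at its highest and Arid5b 12. Mef2c had no other control peak and no Cre peak within 10 kb.

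Among Wnt, hedgehog, PTHrP and FGF genes 10 of 35 had a member, of 19 with a control peak, and 9 had an isolated Cre peak. Fzd7, a Wnt receptor gene, had 6 members with 9 to 13 fragments, 4 of them at its ends, and no Cre peak within 10 kb. Fgfr2 had 5 members with 8 to 14 fragments, and Fgf2 had 1 with 14, which lay outside that gene and 890 bp downstream of the start of Nudt6. Gli2, a hedgehog effector, had 1 with 13. Isolated Cre peaks also lay at Fgf2 (4) and Fgfr2 (1), and none at Fzd7 or Gli2. In all, Fgf2 had 4 control peaks and 10 Cre peaks. Of 34 BMP and TGF-beta genes, 4 had a member, of 11 with a control peak, and 5 had an isolated Cre peak. Bmpr2, a BMP receptor gene, had 2 at its start with 8 and 13 fragments, Tgfb2 had 2, and Tgfbr2 and Smad5 had 1 each.

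Deacetylase and corepressor genes, the group of Hdac3, had a member in 7 of 22, of 14 with a control peak, against 4 with an isolated Cre peak. Hdac4 had 14 fragments in its interior, with a fold of 5.24, below the 7.18 of Hdac2 and the 6.67 of Hdac10 and Tbl1x. Hdac2 had 13 fragments 104 bp from a gene end, Hdac10 had 12 at 155 bp, and Tbl1x, a subunit of the NCoR complex, had 12 at 70 bp. Sin3a, Hdac7 and Hdac11 followed with 10 or 11, and the member counted for Hdac11 lay 8815 bp outside that gene. Hdac2 also had an isolated Cre peak within 10 kb of the gene. Of 16 acetyltransferase and BET reader genes, 3 had an isolated Cre peak and 4 had a member. Crebbp, Kat5 and Brd1 were among those with a member. The member counted for Crebbp had 16 fragments and lay 3190 bp outside that gene, 334 bp before the start of Trap1.

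In the remaining signalling and cycle lists, Phlpp, Akt and mTOR genes had a member in 3 of 21, with 8 for isolated Cre peaks. They were Pik3r2 with 20 fragments, Mtor with 15 and Gsk3b with 9. The member counted for Mtor lies outside that gene, 205 bp before the start of Exosc10. JAK-STAT and NF-kappaB genes had 4 of 32 (Traf3, Rel, Stat6 and Chuk), with 6 for isolated Cre peaks, and AP-1 and immediate-early genes had 3 of 23 (Egr2, Ier2 and Jund), again with 6. These last 3 lay outside the gene, that of Egr2 326 bp before the start of Ado and that of Jund 236 bp before the start of Iqcn. Cell cycle genes had 5 of 24, against 3 for isolated Cre peaks, with E2f1 highest at 16 fragments and Rbl1 next at 10. Counts this small have wide intervals, and these lists were not tested.

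The labelled cell type was checked on defining markers. All 9 chondrocyte markers had peaks in both cultures, and 4 of them, Sox5, Sox6, Col11a1 and Hapln1, had a member. Of 8 fibroblast and perichondrium markers, 2 had Cre peaks and 3 had control peaks, with members at Col1a2 and Col3a1, while Col1a1, Postn, Thy1, Pdgfra and Twist1 had no peak. Of 6 osteoblast markers, 2 had peaks in each culture and none had a member. The defining markers used for skeletal muscle (7), endothelium (6), neuron and glia (6), adipocyte (4) and epithelium (4) had no peak in either culture. The 1 macrophage marker with a peak was Cd68, whose member of 19 fragments lies in the neighbouring gene Mpdu1, and 7 of the 8 had none. In longer lists that take in these markers, 1 of 9 endothelial genes, Erg, had 3 control peaks, of which 1 of 11 fragments was a member, and 2 Cre peaks. Likewise 1 of 7 epithelial genes had peaks in both cultures, with an isolated Cre peak and no member. Of 10 macrophage and blood genes, 1 had Cre peaks and 2 had control peaks. Of 11 muscle genes, 1 had control peaks, Mef2c, which is also among the chondrocyte factors. Fewer cells of a type and less acetylation per cell cannot be told apart in such cultures.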

How the data were processed

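Peak lists of 1 Cre and 1 GFP H3K27ac library were used, each called by the authors per library; 2 input libraries were not analysed here. Per the submitters' processing notes, the tools were SICER, Picard, BWA and bcl2fastq 1.8.4, and the build was mm10. The deposited lists have the column order of MACS2 output; its version, settings and control library: not given in the sources used here. The deposited fold is a ratio of observed to expected fragments at the summit, with 1 added to both, by the authors. The deposited score equals the −log10 q-value times 10, rounded down, throughout, and the deposited −log10 p-value refers to the same position.

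Fold and −log10 p-value were solved together for the summit pileup; 100% of peaks gave a whole number within 0.001. Depth is known only as the background pileup, since no totals of reads were at hand. Positions are 1-based mm10. Genes (21887 protein-coding), promoters and microRNA hairpins came from RefSeq tables of GRCm38.p6, which has the coordinates of mm10. The gene table has no exons and no strand, and no genome sequence was used, so exon classes and peak sequences are not given. Place was set by the summit, with a gene end window of 1 kb.

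Shares carry exact Clopper-Pearson 95% intervals, differences Newcombe 95% intervals and medians order-statistic intervals; all cover counting error only, and no test between cultures was made. Genes were named by rule: the 25 holding most members, those at the 12 members of highest pileup, the 5 widest, the 3 farthest from a gene end and the 12 gene ends of highest pileup, up to 4 members per gene list, and the 3 genes holding most isolated Cre peaks. A few genes that this rule names are not reported here. Loci, the remaining list members named and the noncoding genes were chosen after their values were seen. The members and lists were chosen with earlier results of these data known. Alternatives were 3 other isolation distances, summit-to-summit distance, stricter thresholds, merging within 500 bp, other gene sets and windows, and leaving out X and Y. Python 3.11.15, numpy 2.4.6, pandas 2.3.3, scipy 1.17.1 and matplotlib 3.10.9 were used, and scripts were tested on simulated data.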

Additional observations from a re-analysis of the deposited data

How the results depend on the processing

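The excess of members at gene ends kept its direction and an interval above 0 under each alternative run: 4.05 to 10.4 points against isolated Cre peaks over 13 alternatives, and 2.63 to 8.96 points against other control peaks over 12. These differences, and counting peaks within 10 kb once, were added after seeing the data.

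The levels moved. With an isolation distance of 50 kb there were 1253 members, 154 genes with 2 or more, and shares of 34.9% at gene ends, 44.1% inside genes and 21.1% between them. At 20 kb the first 2 shares were 33.8% and 47.1%, and at 5 kb 28.9% and 51.8%. A −log10 q-value threshold of 5 on the control list left 1145 members and 110 genes, with medians of 183 bp, 12 fragments and 3160 bp to a gene end, and shares of 37.4% at ends and 45.0% inside. On both lists it gave medians of 187.5 bp, 12 fragments and 4009.5 bp. With at least 10 fragments the median width was 177 bp, and 33.5% lay at ends and 47.5% inside. Merging within 500 bp gave a width of 178 bp. End windows of 500 bp gave 17.4% at ends, 60.4% inside and 22.2% between, and windows of 2.5 kb gave 42.8%, 39.9% and 17.4%. With all annotated genes, 36.0% lay at ends, 13.5% between and the median distance was 2646 bp. Counting gene flanks of 10 kb gave 532 genes. The fewer or differently defined peaks follow from each setting; other causes were not tested.

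No paired analysis was possible because each culture had 1 library and no result came from a test between replicates. Low pileups limit what can be said of a single peak.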

Other observations

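Between protein-coding genes, 129 of the 445 members (29.0%) lay inside or within 1 kb of an end of another annotated gene. The long noncoding RNA gene Gm31130 held 5, which are the peaks nearest to Htr1a, and Gm40841 (4), near Prl5a1, and Gm46948 (4) followed. Pvt1, the noncoding neighbour of Myc, held 3. Of 1005 microRNA hairpins, 28 had an isolated control summit within 10 kb and 5 within 1 kb: Mir5100, Mir1934, Mir92b, Mir7075 and Mir7074. The peak 574 bp from Mir1934 is the one in Mpdu1, with 19 fragments.

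On chromosome X, 42 of 98 control peaks were isolated (42.9%, exact 95% interval 32.9 to 53.3), and 33 of 92 Cre peaks were (35.9%, 26.1 to 46.5). On the autosomes the share of control peaks was 14.3% to 21.6%. The peaks at Timp1, Bgn and Tbl1x are among those on X. Chromosome X had fewer peaks than each autosome in both lists, and whether that bears on the share was not tested.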
